A study of Mus musculus with 20 samples.

Results

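The mouse HIN-200 family genes Ifi203, Ifi204, Ifi206, Ifi208, Ifi213, Ifi214 and Mndal were followed through naive CD4+ T cells, Th17 cultures and T cells recovered from the colon. The 7 genes were chosen by name from 39179 gene IDs, and all 7 were found in every count table. They had been picked for a pattern in these same libraries, namely high levels in naive cells, low levels after culture and a partial or full return in the colon. The levels along that path are therefore given as a description without a test, and tests were kept to the genotype and the cytokine.

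HIN-200 genes, also called PYHIN genes, lie in 1 cluster on mouse chromosome 1. Their proteins carry the HIN domain, which binds DNA, and many also carry a pyrin domain, which joins them to other proteins of innate immunity. The best known are Aim2, which senses double-stranded DNA and starts an inflammasome, and Ifi204, which has been linked in mouse cells to DNA sensing through STING. Most of these genes are induced by interferons, and interferon-stimulated genes often hold a promoter motif called the ISRE.

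The study had a transfer part and a culture part, with 10 libraries each, all from C57BL/6 mice carrying an Il17f/Thy1.1 reporter. In the transfer part, naive CD4+ T cells were cultured for 6 days with anti-CD3, antibodies to IFN-gamma and IL-4, 2.5 ng/ml TGF-beta, 20 ng/ml hyper-IL-6 and irradiated splenic antigen-presenting cells. Hyper-IL-6 is IL-6 joined to its soluble receptor, so it also acts on cells without Il6ra. Reporter-positive (Thy1.1+) cells were sequenced before transfer (2 Il6ra-/- libraries carrying CD45.2 and 2 wild-type libraries carrying CD45.1). Of each genotype 200000 such cells were put together into Rag1-/- mice, which lack their own T and B cells. After 4 weeks CD4+ TCRb+ colon cells were sorted by the CD45 allele, without a gate on the reporter (3 Il6ra-/- and 3 wild-type libraries, pool 0 from 1 experiment and pools 1 and 2 from another). In the culture part, sorted Thy1.1+ cells had 6 days of TGF-beta (2.5 ng/ml) with hyper-IL-6 (63 ng/ml) as Il6ra-/- or wild-type cells, or with IL-6 (20 ng/ml) as wild-type cells, and uncultured naive Il6ra-/- and wild-type CD4+ cells were sequenced beside them (2 libraries a group). The labels list a 4-hour stimulation with PMA and ionomycin for all 10 culture-part libraries, naive ones included.

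Gene counts totalled 12718633 to 23745060 in the transfer part and 20160774 to 46848016 in the culture part. Each part was normalised alone, and levels below are CPM, the usual depth-scaled read count, with TMM factors set within a part. The 8 CD4+ T cell markers examined were above 3 counts in every group. Il6ra itself, read over the whole gene, had 31.8 to 32.3 CPM in Il6ra-/- and 39.2 to 39.8 CPM in wild-type hyper-IL-6 cultures, and 199 to 213 CPM in Il6ra-/- and 270 to 421 CPM in wild-type naive cells. It had 2.53 to 4.85 CPM in Il6ra-/- and 4.32 to 10.7 CPM in wild-type colon cells, and 80.6 to 123 CPM in Il6ra-/- and 72.8 to 84.2 CPM in wild-type cells before transfer. The ranges overlapped in the colon and before transfer, and since the deleted stretch is not given, these reads do not check the genotype. Whether the libraries of a group are separate animals is not stated in the labels. The p-values therefore reflect how much libraries vary, and that variation may be technical.

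The stretch before the transcription start is shown first because the 6 members with a promoter entry carried the same 10 letters there. Below are the 120 bases before the RefSeq start (GRCm38.p6, mouse chromosome 1), 5′ to 3′ on the strand of the gene, for the 6 members with a RefSeq promoter and for their relative Ifi209. Ifi203 and Mndal have more than 1 RefSeq promoter, and the one that holds these letters is shown. The other Ifi203 promoter has no match to the ISRE core, and the other Mndal promoter has a match with other letters on the opposite strand. Capitals mark a match to the ISRE core, spelled GAAA, any 2 bases, then GAAA again.
Ifi203 chr1:173942493-173942612 (minus strand): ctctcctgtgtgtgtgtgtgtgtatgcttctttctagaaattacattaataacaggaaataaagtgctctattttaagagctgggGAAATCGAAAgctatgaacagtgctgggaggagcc
Ifi206 chr1:173491319-173491438 (minus strand): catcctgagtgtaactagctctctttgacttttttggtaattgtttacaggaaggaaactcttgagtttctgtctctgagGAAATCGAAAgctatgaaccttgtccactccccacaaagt
Ifi208 chr1:173673545-173673664 (plus strand): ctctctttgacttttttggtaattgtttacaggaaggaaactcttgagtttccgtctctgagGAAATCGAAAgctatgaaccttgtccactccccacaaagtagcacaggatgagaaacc
Ifi213 chr1:173599273-173599392 (minus strand): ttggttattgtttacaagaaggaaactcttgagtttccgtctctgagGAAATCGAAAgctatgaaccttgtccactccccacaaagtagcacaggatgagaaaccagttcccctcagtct
Ifi214 chr1:173535958-173536077 (minus strand): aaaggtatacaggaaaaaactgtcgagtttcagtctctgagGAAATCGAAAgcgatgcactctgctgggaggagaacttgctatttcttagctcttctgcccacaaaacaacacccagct
Mndal chr1:173880188-173880307 (minus strand): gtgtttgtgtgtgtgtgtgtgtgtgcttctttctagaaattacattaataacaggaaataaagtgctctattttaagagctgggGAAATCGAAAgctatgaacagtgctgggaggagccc
Ifi209 chr1:173630739-173630858 (plus strand): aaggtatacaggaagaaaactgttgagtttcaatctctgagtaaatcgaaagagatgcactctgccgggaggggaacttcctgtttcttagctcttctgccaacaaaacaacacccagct
The ISRE core, searched on both strands, was found in 7 of the 8 member promoters of 300 bases (250 before the start and 50 after), which belong to 6 of 6 genes, and in 3 of 6 promoters of relatives. Among all 32851 RefSeq promoters of that length, 3.44% held it. The exact letters GAAATCGAAA were chosen as the commonest ISRE core match in the members' own promoters, so their presence in the members tests nothing. They occurred in 16 of the 32851 promoters (0.0487%). Of those 16 genes, 6 were the members shown, and a further one was the relative Ifi207. The first of these letters lay 35 bases before the start in Ifi203, 36 in Mndal, 40 in Ifi206, 58 in Ifi208, 73 in Ifi213 and 79 in Ifi214. Ifi209 differed from them by G1T, counted from the first letter of the motif, and so has no capitals. The letters did not go with the level in every case, since Ifi209 was abundant in naive cells (234 CPM in Il6ra-/- and 201 CPM in wild type on average) and Ifi207 was not (0.142 CPM in Il6ra-/- and 0.28 CPM in wild type). The GAS core TTCNNNGAA, also searched on both strands, was in 0 of the 8 member promoters and in 8.3% of all promoters. These genes are close copies of each other, as the runs of equal letters around the motif show, so the matches are not independent, and a match is not evidence of binding. The table of promoters gave none for Ifi204.

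The members span 474 kb of chromosome 1, at chr1:173468485-173942672 (GRCm38, GENCODE M21), in the order Ifi206, Ifi214, Ifi213, Ifi208, Ifi204, Mndal and Ifi203. Within 200 kb of that span lay 11 genes outside the family, mostly olfactory receptors. The highest level of any of the 11 in any library was 1.15 CPM (Cadm3), and 6 of them had no count in any library. None of the 11 was at a level where a change like that of the members could be read. The map of the cluster shows the family genes only.

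**Figure D1:**
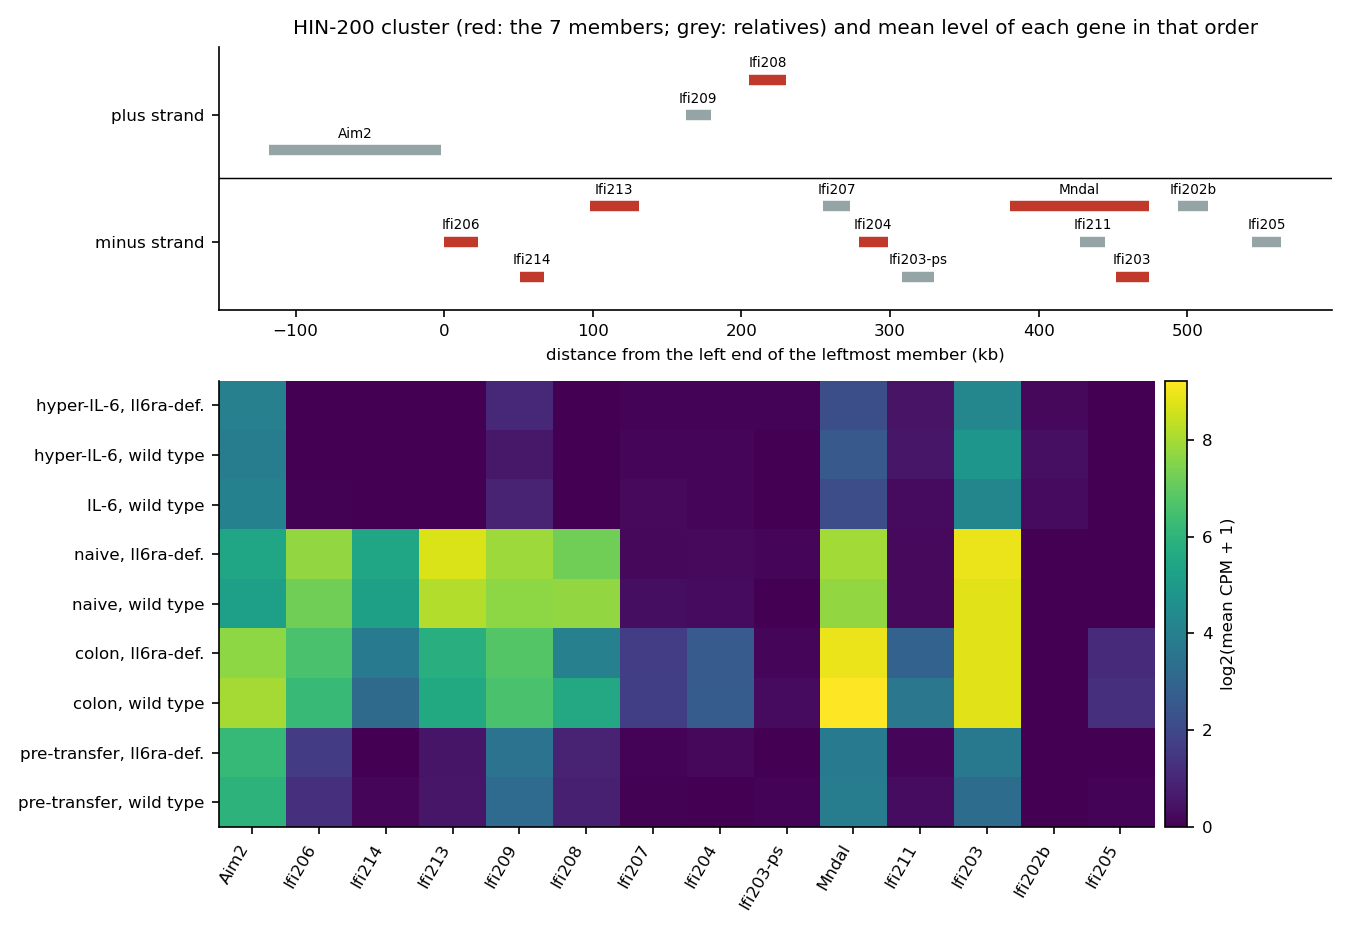
Map of the gene cluster by distance in kb from the leftmost member, with each gene drawn to scale, above a heat map of log2(mean CPM + 1) for each gene in the 9 groups. The members other than Ifi204 are brighter, meaning higher, in the naive rows than in the cultured ones. Only the members and their relatives are drawn.

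Reads cannot always be told apart between such copies. Exons of different members overlapped in only 1 case, 37 bases shared by Ifi203 and Mndal, which is 0.552% of the Ifi203 exon length and 1.02% of that of Mndal. Of the distinct 50-base stretches in each member's transcripts, between 12.2% (Ifi203) and 20.8% (Ifi208) occurred in another family gene. Ifi208 shared 18.1% of its stretches with Ifi213, and Ifi214 shared 14.5% with Ifi209. No source used here says how the authors handled reads that fit several genes, so the sum over the family is given beside the single genes.

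Naive CD4+ T cells held high levels of 6 of the 7 members, and the Th17 cultures held very little of 4 of them. The family sum was 20.8 and 23 CPM in Il6ra-/- hyper-IL-6 cultures, 33.4 and 32.1 CPM in wild-type hyper-IL-6 cultures and 28.3 and 14.8 CPM in wild-type IL-6 cultures, against 1547 and 1598 CPM in naive Il6ra-/- cells and 1363 and 1327 CPM in naive wild-type cells. Every cultured library was far below every naive library. In bulk RNA, fewer cells of a type and less RNA per cell cannot be told apart. The fitted difference of the sum from naive cells of the same genotype was -6.17 ± 0.26 on the log2 scale (SE) for Il6ra-/- hyper-IL-6 cultures, -5.36 ± 0.25 for wild-type hyper-IL-6 cultures and -5.96 ± 0.26 for wild-type IL-6 cultures, and both wild-type contrasts use the same naive libraries.

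Ifi206, Ifi208, Ifi213 and Ifi214 were at or near 0 in culture. Ifi213 had 0 and 0 CPM in Il6ra-/- hyper-IL-6 cultures, 0 and 0 CPM in wild-type hyper-IL-6 cultures and 0 and 0.0296 CPM in wild-type IL-6 cultures, against 418 and 422 CPM in naive Il6ra-/- cells and 280 and 295 CPM in naive wild-type cells. Set against a floor of 3 counts over the group, it was at least 10164-fold lower in Il6ra-/- and at least 7670-fold lower in wild-type hyper-IL-6 cultures. The single count in the IL-6 cultures gave a ratio of 23393 between naive and cultured cells, with a 95% counting interval of 4198 to 924040. The interval is wide because it rests on 1 count.

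Ifi206 had no count in hyper-IL-6 cultures of either genotype and 0.0421 and 0.0296 CPM in IL-6 cultures, against 203 and 219 CPM in naive Il6ra-/- cells and 152 and 147 CPM in naive wild-type cells. It was at least 5120-fold lower in Il6ra-/- and at least 3979-fold lower in wild-type hyper-IL-6 cultures than in naive cells. Ifi208 reached 0.028 CPM at most in any cultured library, against 150 and 151 CPM in naive Il6ra-/- cells and 223 and 203 CPM in naive wild-type cells. Ifi214 had 0 counts in all 6 cultured libraries, against 40.6 and 43.1 CPM in naive Il6ra-/- cells and 34.6 and 39.2 CPM in naive wild-type cells. It was at least 1016-fold lower in Il6ra-/- cultures, and at least 988-fold and 1004-fold lower in wild-type hyper-IL-6 and IL-6 cultures.

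Ifi203 and Mndal also dropped in culture, but stayed well above the floor. Ifi203 had 17.5 and 18.9 CPM in Il6ra-/- hyper-IL-6 cultures, 27.6 and 27.7 CPM in wild-type hyper-IL-6 cultures and 23.7 and 12 CPM in IL-6 cultures, against 486 and 514 CPM in naive Il6ra-/- cells and 471 and 424 CPM in naive wild-type cells. That is 27.6-fold lower in Il6ra-/- hyper-IL-6, 16.1-fold lower in wild-type hyper-IL-6 and 23.6-fold lower in IL-6 cultures. Mndal had 3.21 and 4 CPM in Il6ra-/- hyper-IL-6 cultures, 5.6 and 4.32 CPM in wild-type hyper-IL-6 cultures and 4.42 and 2.58 CPM in IL-6 cultures, against 249 and 248 CPM in naive Il6ra-/- cells and 202 and 219 CPM in naive wild-type cells. Its drop was 68.7-fold, 42.3-fold and 57.8-fold in the same order.

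Ifi204 did not follow this path. It had at most 0.191 CPM in any cultured library and at most 0.391 CPM in any naive library, it did not pass the filter on low counts in the culture part, and no loss could be measured from naive cells that hardly held it. The other 6 members passed that filter, and all 7 passed it in the transfer part.

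**Figure D2:**
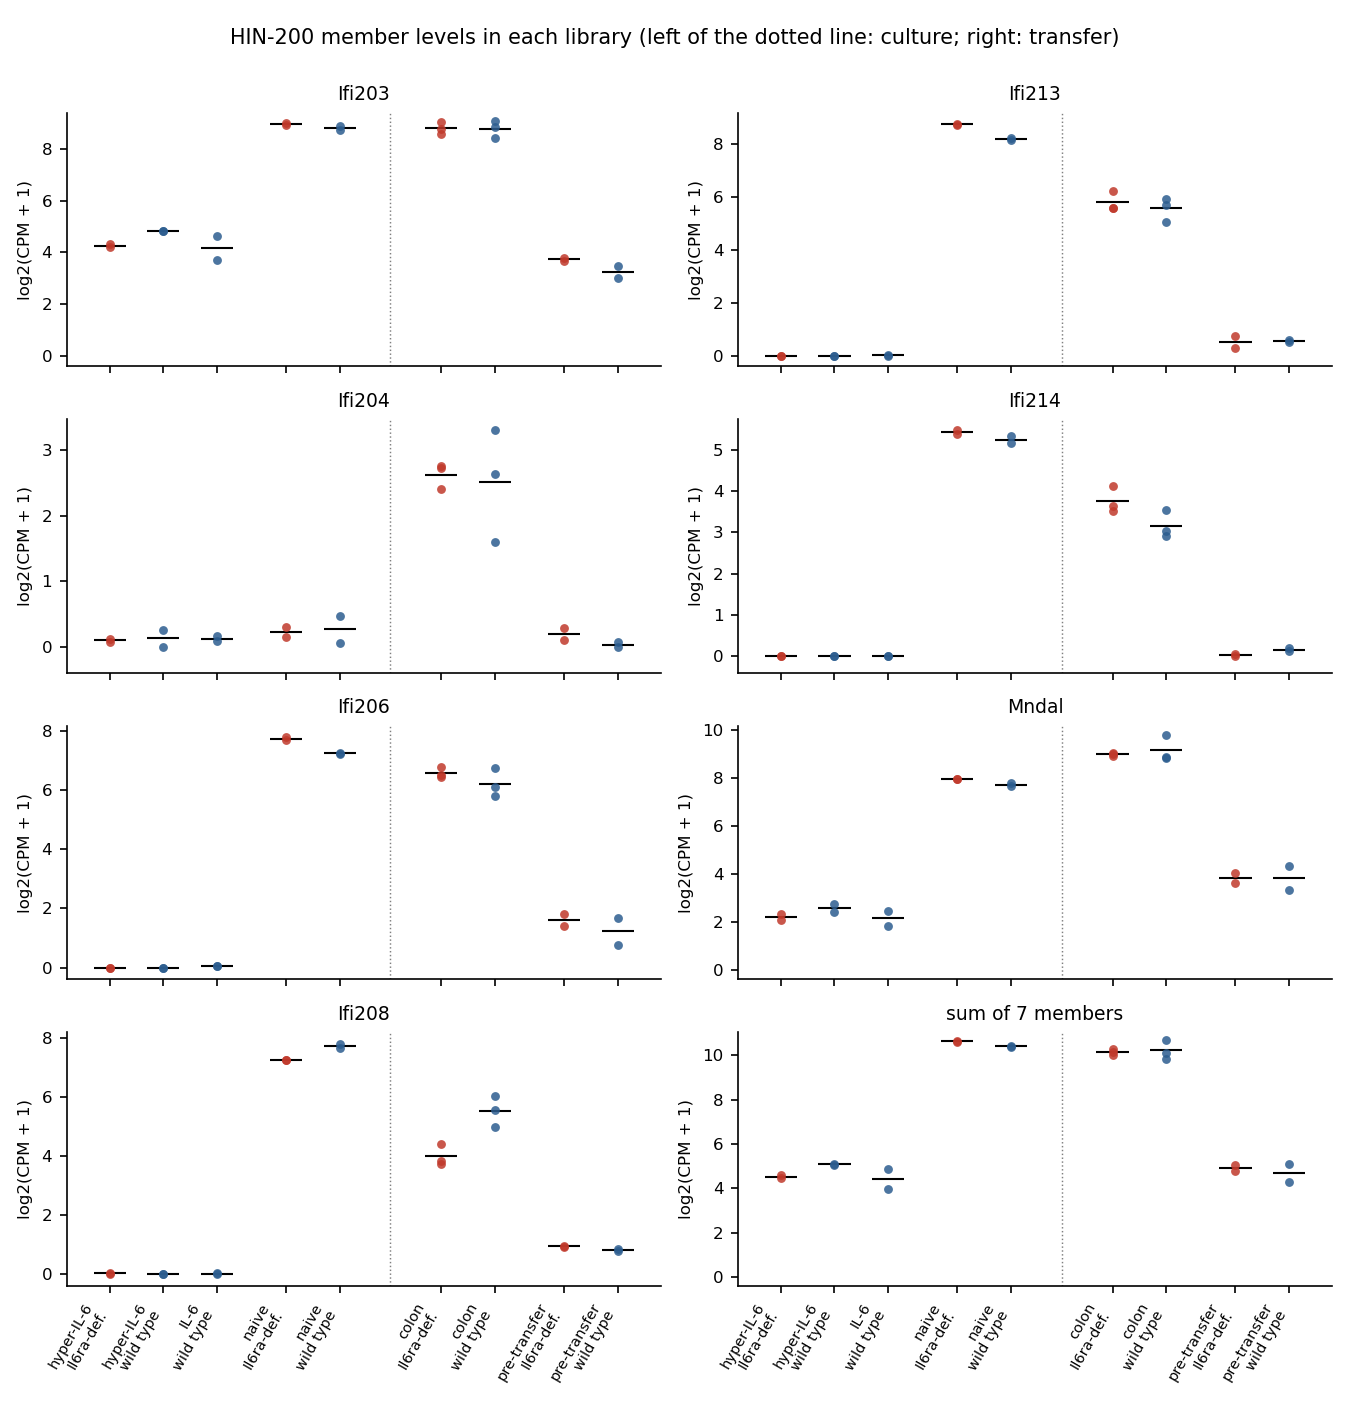
Level of each member and of the family sum in every library, as log2(CPM + 1), with Il6ra-/- libraries in red and wild-type libraries in blue. The black lines are group means of the log values, and the dotted line parts the culture libraries (left) from the transfer libraries (right), which were normalised apart. Each member but Ifi204 is high in naive and colon cells and low in both kinds of cultured cells.

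In the transfer part the cells before transfer, also from Th17 cultures, had low levels, and colon cells of either genotype had high ones. The family sum was 1254, 1119 and 1026 CPM in Il6ra-/- colon cells (pools 0, 1 and 2) and 26.4 and 32.3 CPM in Il6ra-/- cells before transfer. In wild-type cells it was 1111, 922 and 1666 CPM in the colon and 18.2 and 32.8 CPM before transfer. No colon library came near the cells before transfer. The fitted difference was 5.27 ± 0.39 in Il6ra-/- and 5.60 ± 0.40 in wild-type cells on the log2 scale (SE).

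Cells before transfer were not at the floor for Ifi206, Ifi208 and Ifi213, unlike those of the culture part. Ifi206 had 1.63 and 2.48 CPM in Il6ra-/- and 0.704 and 2.18 CPM in wild-type cells before transfer. The 2 parts differ in hyper-IL-6 dose, the listed stimulation with PMA and ionomycin, experiment and normalisation, which cannot be told apart. They also differ in marker sums given below, with those of B cells and of naive and quiescent T cells higher before transfer than in the cultured libraries. The part of these markers in the values was not tested. In the colon Ifi206 had 108, 88.9 and 85.3 CPM in Il6ra-/- and 67.4, 55.1 and 106 CPM in wild-type cells, 46.9-fold and 51.2-fold above the cells before transfer. Ifi213 had 72.5, 46.3 and 46.5 CPM in Il6ra-/- and 59.6, 32.3 and 51 CPM in wild-type colon cells, 127-fold and 93.6-fold above cells before transfer, in which it was at most 0.66 CPM. Ifi214 had 16.3, 11.5 and 10.5 CPM in Il6ra-/- and 7.17, 6.5 and 10.7 CPM in wild-type colon cells, and at most 0.149 CPM before transfer. The colon ranges of the genotypes overlapped for each of these 3 genes, for Ifi214 only narrowly.

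Ifi203 had 528, 432 and 381 CPM in Il6ra-/- colon cells and 458, 342 and 546 CPM in wild-type colon cells, against 11.7 and 12.9 CPM in Il6ra-/- and 7.09 and 10.2 CPM in wild-type cells before transfer. Mndal had 504, 521 and 485 CPM in Il6ra-/- colon cells and 471, 450 and 879 CPM in wild-type colon cells, against 11.4 and 15.5 CPM in Il6ra-/- and 9.06 and 19 CPM in wild-type cells before transfer. Wild-type pool 2 held the highest Mndal value by far, and its family sum was likewise the highest. Colon cells had 36.8-fold (Il6ra-/-) and 50.2-fold (wild-type) more Ifi203 than cells before transfer, and 37.7-fold and 41.6-fold more Mndal.

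The members returned to unlike degrees. Relative to naive cells of the same genotype, mean levels in the colon were 203% (Il6ra-/-) and 285% (wild type) for Mndal, 89.3% and 100% for Ifi203 and 44.7% and 50.9% for Ifi206. They were 30.5% and 22% for Ifi214, 13.1% and 16.6% for Ifi213 and 10.2% and 22.1% for Ifi208. For the sum they were 72% and 91.7%. These percentages set the transfer part beside the culture part, which were normalised and made separately, so they have no test, and part and tissue cannot be told apart.

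The make-up of the family differed between the groups. Ifi206, Ifi208, Ifi213 and Ifi214 together gave 15.6% of the family's summed CPM in Il6ra-/- and 14.6% in wild-type colon cells, 11.7% and 11% in Il6ra-/- and wild-type cells before transfer, and 52.4% and 51.1% in naive Il6ra-/- and wild-type cells (group means). In cultured libraries of the culture part they gave at most 0.402%, and Ifi203 alone gave between 81.3% and 86.5%. Mndal gave 44.7% and 48% in Il6ra-/- and wild-type colon cells, 45.6% and 53.8% in Il6ra-/- and wild-type cells before transfer, and 15.8% and 15.7% in naive Il6ra-/- and wild-type cells. The shares in colon cells were nearer to those before transfer than to those in naive cells.

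**Figure D3:**
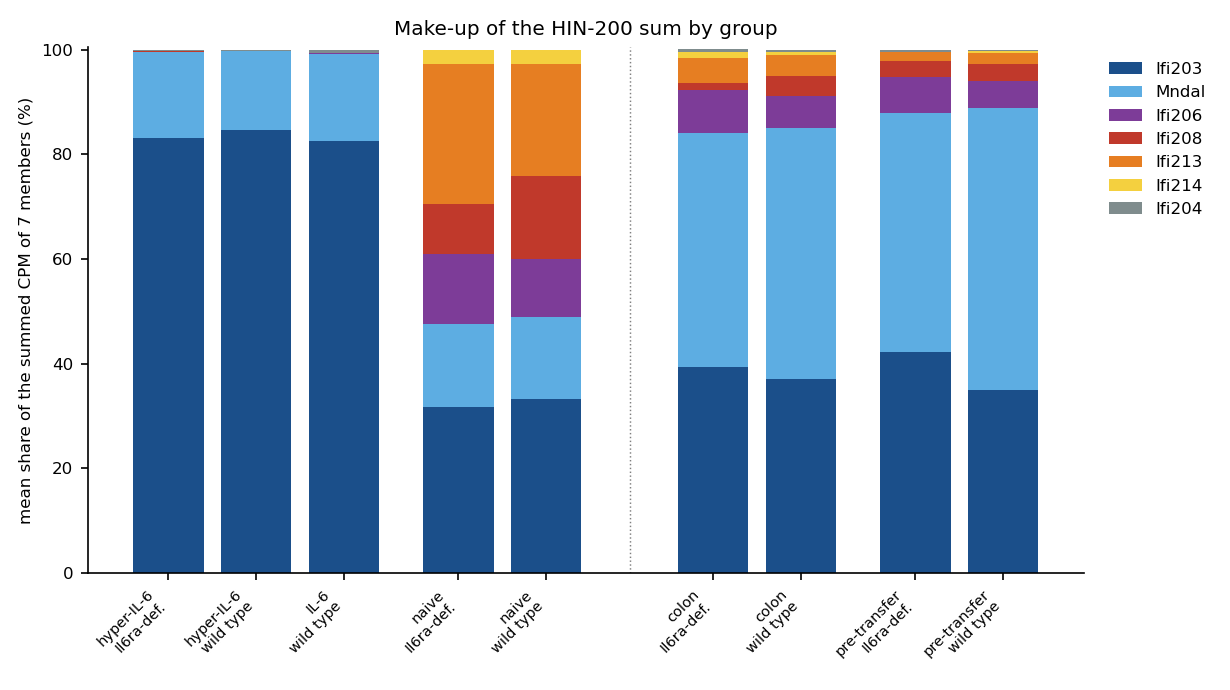
Share of each member in the family's summed CPM, in percent, as stacked bars for the 9 groups. Ifi203 fills most of the bar in the 3 cultured groups, while Mndal takes 44.7% and 48% in Il6ra-/- and wild-type colon cells.

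Levels per kb of exon allow an order between the genes. In wild-type colon cells Mndal stood highest at 165 ± 66.6 CPM per kb (SD, n = 3), then Ifi203 at 66.9 ± 15.3, Ifi206 at 24.9 ± 8.66, Ifi208 at 8.97 ± 3.16, Ifi213 at 6.96 ± 2.05, Ifi204 at 1.52 ± 0.968 and Ifi214 at 1.0 ± 0.275. Ifi208 and Ifi213 did not differ there beyond their spread, nor did Ifi204 and Ifi214. In Il6ra-/- colon cells the order was Mndal (139 ± 5.03), Ifi203 (66.6 ± 11.2), Ifi206 (30.8 ± 4.07), Ifi213 (8.05 ± 2.2), Ifi208 (2.92 ± 0.821), Ifi214 (1.57 ± 0.383) and Ifi204 (1.47 ± 0.221), again with the lowest pair within its spread. In naive wild-type cells (n = 2) the 5 leading genes lay close together, between 40.5 CPM per kb for Ifi208 and 66.7 for Ifi203.

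Ifi204 was above 1 CPM in the colon and in no other group. It had 4.33, 5.76 and 5.61 CPM in Il6ra-/- and 2.04, 5.25 and 8.93 CPM in wild-type colon cells, against 0.0777 and 0.214 CPM in Il6ra-/- and 0.047 and 0 CPM in wild-type cells before transfer. The relative Ifi211 had 6.47, 7.66 and 5.13 CPM in Il6ra-/- and 8.51, 8.59 and 17.9 CPM in wild-type colon cells, and at most 0.239 CPM on average in either genotype before transfer. Ifi205, which has been linked to inflammasome components in mouse macrophages, averaged 1.15 CPM in Il6ra-/- and 1.36 CPM in wild-type colon cells. All colon libraries were above all others for these genes, and all were low.

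Markers of some other cell types were also higher in the colon. The summed level of 16 myeloid markers was 139, 520 and 421 CPM in Il6ra-/- colon cells and 178, 542 and 378 CPM in wild-type colon cells, against 18.1 to 74.3 CPM in Il6ra-/- and 26.1 to 45.7 CPM in wild-type cells before transfer. All 16 were above 3 counts in colon cells of each genotype. Before transfer 11 were above 3 counts in Il6ra-/- and 10 in wild-type cells, and Fcgr1 was at 0 in both. The 8 dendritic cell markers summed to 164 to 260 CPM in colon cells and 25.5 to 94 CPM before transfer, and the 7 epithelial markers to 102 to 471 CPM and 4.04 to 23.7 CPM. Whether these cells contributed to the colon levels of Ifi204, Ifi211, Ifi205 or the other family genes was not tested. In naive cells the myeloid sum was 28.5 to 40.8 CPM. Of the 16 myeloid markers, 13 were above 3 counts in Il6ra-/- and 11 in wild-type naive cells, and S100a8 and S100a9 were at 0 in both. The 7 stromal and endothelial markers summed to 118 to 179 CPM in colon cells, 126 to 149 CPM before transfer and 245 to 310 CPM in naive cells. The similar sums hide a difference in the genes seen. All 7 were above 3 counts in colon cells of each genotype. Before transfer 2 were above 3 counts in Il6ra-/- and 5 in wild-type cells, and Col3a1 was at 0 in both. In naive cells 3 were above 3 counts in each genotype. The 6 B cell markers summed to 36.7 to 83.7 CPM in Il6ra-/- and 16.1 to 29.1 CPM in wild-type colon cells, against 78.6 to 129 CPM in Il6ra-/- and 50.1 to 139 CPM in wild-type cells before transfer. They summed to 409 to 461 CPM in naive cells and 3.38 to 6.81 CPM in cultured ones, of which Ighm gave 407 to 457 CPM in naive cells while Ms4a1 was at most 1.02 CPM. A list of 9 naive and quiescent T cell markers summed to 907 to 1108 CPM in cultured and 7627 to 7997 CPM in naive cells, and to 2430 to 3280 CPM in colon cells and 2897 to 5326 CPM in cells before transfer. The part of these lists in the family's levels was not tested.

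Other HIN-200 genes moved with the members in part. Ifi209 averaged 234 CPM in naive Il6ra-/- and 201 CPM in naive wild-type cells and at most 1.09 CPM in the cultured groups. In colon cells it averaged 108 CPM (Il6ra-/-) and 94.2 CPM (wild type), 45.9% and 46.8% of naive levels. Aim2 was lower in culture too, with 15.4 CPM in Il6ra-/- and 14 CPM in wild-type hyper-IL-6 cultures, against 43.6 CPM and 35.8 CPM in naive cells. In the colon it averaged 201 ± 13.5 CPM in Il6ra-/- and 254 ± 99.6 CPM in wild-type cells (SD, n = 3), 460% and 712% of naive levels. Of the relatives that passed the low-count filter, 5 of 5 were higher in the colon than before transfer in each genotype, and 2 of 4 (Aim2 and Ifi209) were lower in each kind of culture than in naive cells (edgeR's quasi-likelihood test, Benjamini-Hochberg adjusted p under 0.05). Over all genes 13.8% (Il6ra-/-) and 17.1% (wild type) were called higher in the colon, and 33.5% to 34.4% were called lower in culture. Ifi205, Ifi207 and Ifi211 had between 1 and 10 counts over a group before transfer. They passed the filter only through their colon counts, so their calls as higher were nearly fixed in advance. The colon comparison is therefore informative for Aim2 and Ifi209 only.

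Interferon-stimulated genes as a group went the same way. Of 42 such genes, chosen with earlier results of these data known, 41 were tested in the culture part, and 40 were lower in each kind of culture than in naive cells by edgeR's quasi-likelihood test with Benjamini-Hochberg adjustment. The exception was Gbp2, a guanylate-binding protein gene, at 0.03 ± 0.29 on the log2 scale in IL-6 cultures. The median log2 difference of the list was -5.37 in Il6ra-/- hyper-IL-6, -4.92 in wild-type hyper-IL-6 and -4.84 in IL-6 cultures, against 0.04, 0.04 and 0.05 over all genes tested. Over all genes, 72.0%, 70.3% and 70.6% were called in the same contrasts, of which 34.4%, 33.5% and 33.6% were lower and 37.5%, 36.8% and 37.0% higher. Irf7, a transcription factor that amplifies interferon responses, changed by -9.38 ± 0.17 in Il6ra-/- hyper-IL-6 cultures (adjusted p = 1.22e-10, edgeR), and Isg15, a ubiquitin-like modifier, by -5.62 ± 0.30 (adjusted p = 3.23e-08).

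In the colon 34 of 42 interferon-stimulated genes were higher and 0 lower than before transfer in Il6ra-/- cells, and 35 were higher and 1 lower in wild-type cells, by the same edgeR test. The one that was lower was Ifi27l2a, at -2.23 ± 0.52 in wild-type cells. The list medians were 2.45 in Il6ra-/- and 2.61 in wild-type cells on the log2 scale, against -0.00 and -0.02 over all genes, of which 27.0% and 32.9% were called, 13.8% and 17.1% as higher and 13.2% and 15.8% as lower. Gbp4 averaged 440 CPM in Il6ra-/- and 408 CPM in wild-type colon cells and 27.9 CPM in Il6ra-/- and 26.2 CPM in wild-type cells before transfer. Parp14, a mono-ADP-ribosyltransferase gene, averaged 319 and 323 CPM in Il6ra-/- and wild-type colon cells and 138 and 98.8 CPM before transfer. Samd9l, an antiviral factor gene, had spread-out values before transfer (41 ± 43.5 CPM in Il6ra-/- and 9.42 ± 1.82 CPM in wild-type cells, SD, n = 2).

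Genes that carry the interferon signal were less alike. Of 16 receptor and signalling genes, 12 were lower and 2 higher in each kind of culture than in naive cells. The list medians were between -1.62 and -1.51 on the log2 scale, against 0.04 to 0.05 over all genes. Of all genes tested, 33.5% to 34.4% were called lower and 36.8% to 37.5% higher. The 2 higher ones of the list were Jak2, a cytokine receptor kinase, and Irf8, a transcription factor. Jak1, a kinase of the same family, was lower in each kind of culture, by -2.05 ± 0.11 in Il6ra-/- hyper-IL-6 cultures. In the colon 13.8% of all genes were called higher and 13.2% lower than before transfer in Il6ra-/- cells. In wild-type cells these shares were 17.1% and 15.8%. Of the 16, 6 were higher and 3 lower in Il6ra-/- cells, and 7 higher and 4 lower in wild-type cells. Ifngr1, a chain of the interferon-gamma receptor, was among the higher ones (1.90 ± 0.31 in Il6ra-/- and 1.68 ± 0.30 in wild-type cells), and Ifngr2, the other chain, was among the lower ones (-3.97 ± 0.34 and -3.40 ± 0.33).

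The cytosolic DNA sensing list held 20 genes, of which 17 were tested in the culture part and 19 in the transfer part. In culture 12 were lower and 3 higher in Il6ra-/- hyper-IL-6 cells than in naive cells, and 13 were lower and 2 higher in each wild-type contrast. Cgas, the enzyme that makes the second messenger for STING, was higher in wild-type hyper-IL-6 cultures (0.85 ± 0.14) and Tmem173, which encodes STING, was lower (-1.32 ± 0.16). The other abundant genes of the list were lower in the same wild-type cultures, at -3.46 ± 0.11 for Samhd1, which degrades nucleotides, -3.82 ± 0.09 for Ikbke, an innate kinase, and -0.77 ± 0.10 for Irf3, a transcription factor activated downstream of STING. In the colon 13.8% (Il6ra-/-) and 17.1% (wild type) of all genes were called higher than before transfer, and 13.2% and 15.8% lower. Of the DNA sensing genes, 9 were higher in Il6ra-/- and 10 in wild-type colon cells, and 0 were lower. The myeloid marker sums given above were higher in the same libraries, and their part in this count was not tested. Of the 7 Schlafen genes, which are linked to interferon and to T cell quiescence, Slfn1 was lower in wild-type hyper-IL-6 cultures (-4.66 ± 0.15) and Slfn2 was higher (0.98 ± 0.14). Slfn5 (-6.17 ± 0.25) and Slfn8 (-4.71 ± 0.17) were lower there too. In all 3 of 7 were lower and 3 higher in each wild-type contrast, and 4 were lower and 2 higher in Il6ra-/- hyper-IL-6 cultures, while 33.5% to 34.4% of all genes were called lower and 36.8% to 37.5% higher. In the colon 2 of the 7 were higher than before transfer in each genotype, Slfn8 and Slfn4, and 0 were lower. The shares of all genes called there were 13.8% and 17.1% as higher and 13.2% and 15.8% as lower.

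Across libraries, 8 genes outside the family and its relatives ran closest to the family sum. Likeness was the smaller of the Pearson r over the 10 transfer libraries and that over the 10 culture libraries, on log2(CPM + 1), among 8908 genes, and the libraries of a group share their treatment, so r describes mainly the group pattern. Gbp4 had 0.998 and 0.995, Gbp9 had 0.994 and 0.994, and Epsti1, an interferon-responsive gene, had 0.989 and 0.996. Adgre5, Hsd11b1, Apbb1ip, Sorl1 and Trim26 made up the rest, with values between 0.988 and 0.994. Of the members, Ifi203 and Mndal had 0.999 in both parts, and Ifi204 had 0.955 and 0.471. The members are themselves part of the sum, and Ifi203 and Mndal a large part, so their r cannot be set against that of outside genes.

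Genotype was compared in each setting, and none of the members passed edgeR's quasi-likelihood test in any genotype or cytokine contrast after Benjamini-Hochberg adjustment over all genes. In the colon 0 of 7 were called, 1 had an unadjusted p under 0.05 and DESeq2 called 1, and both of these were Ifi208. Over all genes 22 of 14225 (0.155%) were called there, 0.0633% as higher and 0.0914% as lower in Il6ra-/- cells. DESeq2 called 133 (0.935%), and edgeR called 0 to 8 when 1 colon library was left out. The family sum differed between Il6ra-/- and wild-type colon cells by a log2 value of -0.12 ± 0.27, with an adjusted p of 1 in edgeR's test, and the median over the members was -0.01, against 0.00 over all genes.

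Ifi208 had 20.3, 13.4 and 12.3 CPM in Il6ra-/- colon cells, against 46.2, 31 and 64.2 CPM in wild-type colon cells. Every Il6ra-/- pool was below every wild-type pool, both in pool 0 and in pools 1 and 2, which came from another experiment. Groups did not overlap in 1 of 7 members, and 15.8% of all genes tested had groups that did not overlap. The difference was -1.62 ± 0.29 on the log2 scale, with an unadjusted p of 0.000197 and an adjusted p of 0.0767 in edgeR's quasi-likelihood test. With the pool number as a block it was -1.59 ± 0.27 and passed (edgeR adjusted p = 0.0466, with 0.661% of all genes called), and DESeq2 gave -1.63 with an adjusted p of 0.000247. Leaving out 1 library at a time gave differences between -1.87 and -1.33 with edgeR adjusted p from 0.102 to 0.429.

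The other 6 members had log2 differences in the colon between -0.25 ± 0.31 (Mndal) and 0.66 ± 0.35 (Ifi214), with an adjusted p of 1 for each in edgeR's test. Ifi213, with which Ifi208 shares most stretches, stood at 0.21 ± 0.31, and the summed level of the pair was 92.7, 59.7 and 58.8 CPM in Il6ra-/- and 106, 63.3 and 115 CPM in wild-type colon cells. Those ranges overlap. The CD45 gene Ptprc also lies on chromosome 1, 35.3 Mb from the nearest member, and the donors differed in its allele, so in the transfer part the Il6ra genotype and the chromosome region around the CD45 allele cannot be told apart. Colon cells of the genotypes also differed in a list of 6 CD8 T cell and NK cell markers (127 to 189 CPM in Il6ra-/- and 64.8 to 119 CPM in wild-type cells). They differed too in 7 Th17 markers (665 to 709 CPM in Il6ra-/- and 1140 to 1242 CPM in wild-type cells) and in the B cell markers given above. The part of these lists in the result was not tested.

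**Figure D4:**
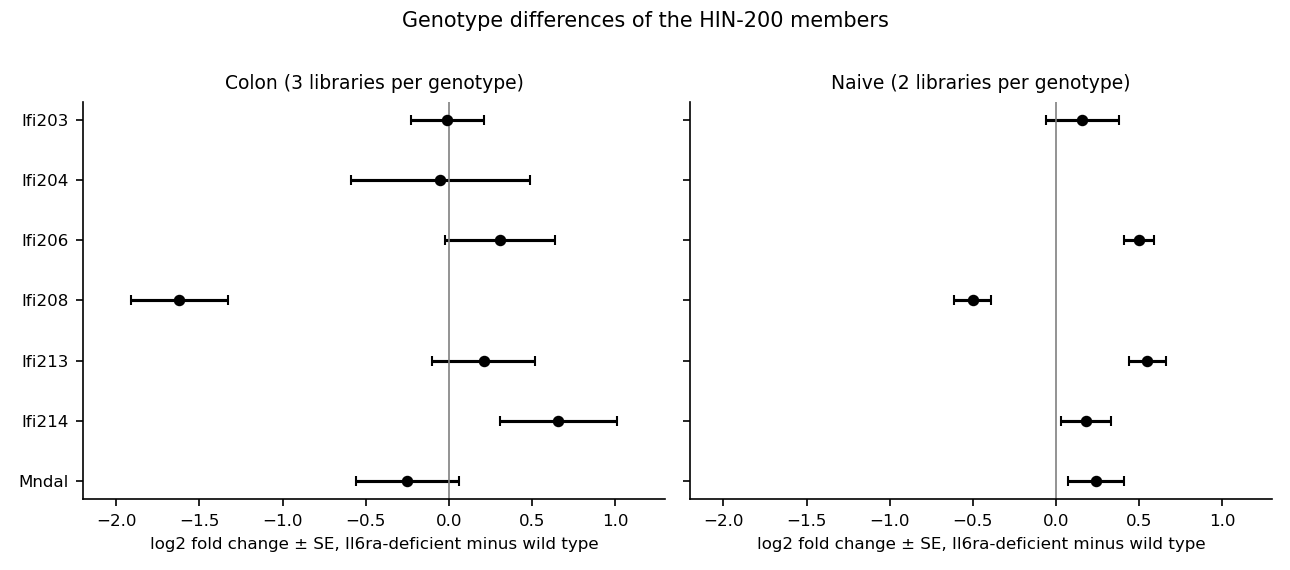
Fitted log2 difference, Il6ra-/- minus wild type, of each member in colon and naive cells (Ifi204 in colon cells only), with bars of 1 SE. Ifi208 lies below 0 in both, at -1.62 in the colon and -0.50 in naive cells, while Ifi206 and Ifi213 lie above 0 in naive cells.

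Before transfer 0 of 7 members were called, 0 had an unadjusted p under 0.05 and DESeq2 called 0, beside 0.00703% of all genes in the edgeR test. Without wild-type replicate 0, edgeR called 7.71% of all genes before transfer and 4.0% in the interaction with the colon, and none of the members. Groups did not overlap in 4 of 7 members (16.4% of all genes). Ifi203, Ifi204 and Ifi208 were higher in Il6ra-/- cells, and Ifi214 was lower. Ifi204 had at most 0.214 CPM and Ifi214 at most 0.149 CPM there, a few counts a library. Both passed the filter only through their colon counts, so their lack of overlap is within counting error and the count of 4 is no excess. Ifi208 had 0.932 and 0.897 CPM in Il6ra-/- and 0.704 and 0.793 CPM in wild-type cells before transfer. The genotype difference of Ifi208 in the colon was below that before transfer by -1.90 ± 0.53 on the log2 scale, with an unadjusted p of 0.00461 and an adjusted p of 0.953 in edgeR's test, so a change in the difference was not shown. In that interaction 0% of all genes and 0 of 7 members were called, 2 members (Ifi208 and Ifi214) had an unadjusted p under 0.05, and DESeq2 called 0 members.

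Naive cells showed small differences in the same cluster with opposite signs. Ifi208 had 150 and 151 CPM in naive Il6ra-/- and 223 and 203 CPM in naive wild-type cells (log2 difference -0.50 ± 0.11, edgeR adjusted p = 0.263). Ifi206 had 203 and 219 CPM in naive Il6ra-/- and 152 and 147 CPM in naive wild-type cells (0.50 ± 0.09, edgeR adjusted p = 0.202), and Ifi213 had 418 and 422 CPM and 280 and 295 CPM (0.55 ± 0.11, edgeR adjusted p = 0.203). None of the 3 groups of values overlapped between genotypes, and the labels of the culture part give no CD45 allele.

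Of the 6 members tested in naive cells, 0 passed edgeR's test, beside 0.00670% of all genes, but 3 had an unadjusted p under 0.05, and DESeq2 called those 3 with adjusted p of 0.0101 for Ifi206, 0.0157 for Ifi208 and 0.000151 for Ifi213. DESeq2 called 95 of 14926 genes in all (0.636%). Without wild-type naive replicate 2, edgeR also called these 3, among 902 of 15605 genes (5.78%). Groups did not overlap in 6 of 6 members (5 higher and Ifi208 lower in Il6ra-/-), beside 37.5% of all genes, and with 2 libraries a group this is a weak criterion. The sum of Ifi208 and Ifi213 was 569 and 573 CPM in naive Il6ra-/- and 503 and 498 CPM in naive wild-type cells. For the sum of all 7 the log2 difference was 0.23 ± 0.21, with an adjusted p of 0.714 in edgeR's test. Interferon-stimulated genes had a median difference of 0.54 in naive cells against 0.00 over all genes, with 0 of 41 called by edgeR's test.

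In culture, genotype and cytokine could be compared for Ifi203 and Mndal, since the other members were at the floor. Ifi206, Ifi208, Ifi213 and Ifi214 passed the filter only through naive cells. Counts out of 6 members in the culture contrasts that follow are therefore informative for Ifi203 and Mndal only. Ifi203 differed by -0.61 ± 0.23 between Il6ra-/- and wild-type hyper-IL-6 cultures (unadjusted p = 0.0237, edgeR adjusted p = 1), and Mndal by -0.46 ± 0.22 (unadjusted p = 0.0617, edgeR adjusted p = 1). Both were lower in each Il6ra-/- library than in each wild-type library, 2 of 6 members tested, beside 31.2% of all genes. In edgeR's test 0 of 6 members and 0% of all genes were called, 1 member had an unadjusted p under 0.05, and DESeq2 called 0 members.

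Hyper-IL-6 against IL-6 in wild-type cultures gave 0.62 ± 0.23 for Ifi203 (unadjusted p = 0.021, edgeR adjusted p = 1) and 0.48 ± 0.22 for Mndal (unadjusted p = 0.0515, edgeR adjusted p = 1). The Ifi203 values were 27.6 and 27.7 CPM with hyper-IL-6 against 23.7 and 12 CPM with IL-6, so 1 IL-6 library was far below the other 3 libraries, and the difference ranged from 0.22 to 1.21 when single libraries were left out. Here 0 of 6 members and 0% of all genes were called by edgeR, 2 members had an unadjusted p under 0.05 (Ifi203, and Ifi206 at the floor), and DESeq2 called 0 members. The 2 contrasts share the wild-type hyper-IL-6 libraries. Groups did not overlap in 2 of 6 members, beside 26.8% of all genes. They were Ifi203 and Ifi206, and Ifi206 had 0 counts with hyper-IL-6 and 3 with IL-6 over the group, so only Ifi203 can be read.

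The genotype difference in hyper-IL-6 cultures was set against that in naive cells as well. It was lower by -0.77 ± 0.31 for Ifi203 (edgeR adjusted p = 0.568) and by -0.70 ± 0.28 for Mndal (edgeR adjusted p = 0.563), and for the sum by -0.81 ± 0.30 (edgeR adjusted p = 0.561). In this contrast 0 of 6 members and 0% of all genes were called, 2 members (Ifi203 and Mndal) had an unadjusted p under 0.05, and DESeq2 called 0 members.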

How the data were processed

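RNA of CD4+ T cells was sequenced in 20 libraries. The values used are the whole-number read counts per gene that the authors deposited, 1 table a library. Upstream steps used HTSeq 0.7.2, STAR 2.5.3 and SAMtools 0.1.18, besides R 3.4.3 with DESeq2 1.18.1, on GRCm38, per the submitters' processing notes, and per the labels' protocols a stranded mRNA kit made the transfer libraries. The counting strand, multi-mapping rule and annotation release are not given in the sources used here.

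Rows that name no gene (18.1% to 31.9% of uniquely placed reads had no gene and 0.526% to 0.844% were ambiguous) were left out. Of 39179 gene IDs, 37693 were named from GENCODE M21. The transfer and culture parts were each fitted with a group-only design in edgeR 4.0.16 (TMM, filterByExpr, quasi-likelihood test, Benjamini-Hochberg threshold 0.05) under R 4.3.3, testing 14225 and 14926 genes. The family sum was fitted as 1 row in place of the members. The fit was tested on simulated data. The members, gene lists, markers and tests were chosen with earlier results of these data known. Named genes were the members, their relatives, the 4 genes of each list with the highest mean CPM (a gene withheld from the text is not reported here) and the 8 likeness genes, while Irf7, Isg15, Cgas, Irf8, Ifngr2, Slfn4 and Ifi27l2a were chosen after their values were seen.

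Transfer numbers pair samples of 1 experiment per the labels. Deviations of same-numbered colon libraries correlated at 0.624, 0.246 and 0.00964, and those before transfer at 0.365. Pairing pools 1 and 2 by number is an assumption. Alternatives were RLE factors, no filter, a stricter filter, DESeq2 1.42.0, a replicate block, the compared groups alone, each library left out, and leaving out wild-type colon pool 2 with wild-type library 1 before transfer. No libraries looked like duplicates. Intervals and floors cover counting error only.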

Additional observations from a re-analysis of the deposited data

How the results depend on the processing

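Member calls changed with the filter, the test tool, the block and single libraries, and RLE factors changed none. In the colon 1 member (Ifi208) was called without the filter, by DESeq2, with the replicate block and, in an alternative chosen after seeing the data, with the compared groups alone and the replicate block. In naive cells 3 were called without the filter (1.85% of all genes) and by DESeq2 (0.636%), and 0 to 3 when single libraries were left out (3 without wild-type replicate 2, with 5.78% of all genes). Without the filter 1 was called for genotype in hyper-IL-6 culture, 1 for hyper-IL-6 against IL-6 and 2 for the culture interaction, beside 0.312%, 0.152% and 1.14% of all genes, and the sum also passed (-0.59, 0.59 and -0.82). With the replicate block in the culture part, whose samples share only a number, 0 members were called and the sum stood at -0.58 for genotype in hyper-IL-6 culture, 0.23 in naive cells, 0.62 for cytokine and -0.80 for the interaction. In the transfer part the block gave the sum -0.08 in the colon, 0.25 before transfer and -0.33 for the interaction. It turned Ifi203 to 0.01 and Ifi204 to 0.15 in the colon (0.11 with the colon libraries alone), and Mndal to 0.01 before transfer. Without wild-type colon pool 2 and wild-type library 1 before transfer, the colon differences became 0.15 for the sum, 0.16 for Ifi203, 0.51 for Ifi204 and 0.13 for Mndal, and Mndal before transfer 0.56. Leaving out single libraries gave -0.29 to 0.15 for the sum in the colon and -0.14 to 0.68 before transfer, in the colon -0.17 to 0.16 for Ifi203, -0.43 to 0.51 for Ifi204, -0.04 to 0.41 for Ifi213 and -0.42 to 0.13 for Mndal, before transfer -0.07 to 1.53 for Ifi206, -1.14 to 0.45 for Ifi213 and -0.48 to 0.56 for Mndal, and in the interaction -1.24 to 0.36 for Ifi206, -0.24 to 1.34 for Ifi213 and -0.84 to 0.20 for Mndal. The cause was not tested. Over all genes the colon calls were 22, against 120 without the filter, 133 by DESeq2, 94 with the block, 108 with the colon libraries alone and 0 to 8 when 1 colon library was left out. Before transfer 1 gene was called, against 1152 without wild-type replicate 0, which also moved the interaction calls to 597, against 0. The culture interaction had 2.51% of all genes called without naive wild-type replicate 2, against 0%. Members with few counts before transfer or in culture have no usable genotype difference there.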

Other observations

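Ifi202b, a relative without a pyrin domain that is known to hold back Aim2 in mouse cells, had 0 counts in every naive, colon and pre-transfer library. In culture it averaged 0.152 CPM in Il6ra-/- hyper-IL-6, 0.285 CPM in wild-type hyper-IL-6 and 0.221 CPM in IL-6 cultures, which are 11, 23 and 21 counts over 2 libraries each. The IL-6 counts were 21 in 1 library and 0 in the other. It was the only family gene with counts in culture and none elsewhere, and its difference from naive cells did not pass edgeR's test (adjusted p = 0.113, 0.0531 and 0.0672 in the same order). Ifi207, which holds the same 10 promoter letters as the members, averaged 2.23 CPM in Il6ra-/- and 2.28 CPM in wild-type colon cells and at most 0.28 CPM elsewhere.

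Irf8 ran against most interferon-linked genes. It was 3.65 ± 0.16 higher on the log2 scale in Il6ra-/- hyper-IL-6 cultures than in naive cells (edgeR adjusted p = 6.99e-09) and -1.67 ± 0.34 in Il6ra-/- colon cells relative to cells before transfer (edgeR adjusted p = 0.00443).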
